A study of Mus musculus with 12 samples.

Results

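The Rab genes encode small GTPases that switch between a GTP-bound state on a membrane and a GDP-bound state in the cytosol, and each Rab protein marks the vesicles of a particular step of membrane traffic. Those of early and late endosomes handle cargo taken up by the cell, recycling Rabs return receptors to the surface, secretory Rabs bring granules and vesicles to the plasma membrane, and others act between the endoplasmic reticulum and the Golgi. In endothelium, Rab proteins carry growth-factor receptors, junction proteins and the contents of storage granules. All gene symbols made of "Rab" and a number, with or without a letter from a to d, were taken, which gave 59 of the 23238 symbols. They were sorted by the textbook site of their proteins into 14 endocytic members (7 of early and 7 of late endosomes), 10 recycling, 12 secretory, 14 ER-Golgi and 9 other members.

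The study sequenced RNA of meningeal lymphatic endothelial cells, which line the lymph vessels in the membranes around the brain, after magnetic sorting from 3 to 4 mice of a strain. Its title links DSCR1, an inhibitor of calcineurin, with lymphatic drainage and amyloid in Alzheimer's disease. There were 12 libraries in 3 groups of 4, titled AD_TG, AD_B6 and SJL_B6; the labels do not spell these titles out. All 12 carry the same strain label, C57BL/6, the same tissue label and the same age, 20 weeks. No allele, promoter or treatment is given for any group, so neither a transgene nor a strain background can be told apart from the title of the group. With 3 to 4 mice of a strain and 4 libraries of a group, some libraries may share an animal, and the p-values measure only the spread between these samples.

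Gene by gene, the libraries held reads for some Rabs throughout and for others only in some. A value counts as reads here when its linear amount reaches 0.3, which lies below the size of 1 read as estimated for each library (0.702 to 1.76). For 48 of the 59 members RefSeq (GRCm38.p6) gave the 250 bases before the gene start. The window of a member with reads in all 12 libraries and that of a member with reads in none are shown. At the median, the members with reads throughout had more CG dinucleotides there. CG dinucleotides are in capitals. The first window lies at chr11:100738216-100738465 and the second at chr1:90967668-90967917, both read from the minus strand.
Rab5c: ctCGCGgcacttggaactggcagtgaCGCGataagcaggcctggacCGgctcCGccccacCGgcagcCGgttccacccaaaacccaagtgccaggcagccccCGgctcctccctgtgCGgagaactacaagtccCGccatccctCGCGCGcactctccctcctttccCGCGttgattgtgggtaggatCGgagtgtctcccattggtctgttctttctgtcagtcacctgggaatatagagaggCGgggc
Rab17: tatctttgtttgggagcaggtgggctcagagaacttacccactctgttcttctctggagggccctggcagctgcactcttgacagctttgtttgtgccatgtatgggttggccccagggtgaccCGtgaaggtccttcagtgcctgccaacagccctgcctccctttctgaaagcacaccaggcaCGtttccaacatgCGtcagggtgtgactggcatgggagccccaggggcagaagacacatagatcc

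The Rab5c window held 18 CG dinucleotides and the Rab17 window 3. The median was 20.5 over the 18 windows of members with reads in all 12 libraries, 13 over the 28 windows of members with reads in 1 to 11, and 5 over the 2 windows of members with reads in none. This order was not particular to Rabs: over the genes of the files, the median was 17 for those with reads in all 12 libraries and 2 for those with none. Single members departed from it in both directions. Rab6b, an isoform of the Golgi Rab6 best known from brain, had 40 CG dinucleotides and reads in 7 libraries, and Rab35 had 39 and reads in 10. Rab11b, Rab7 and Rab11a, with reads in all 12, had 9, 10 and 10. The E-box letters CACGTG, which read the same on both strands, occurred in 4 of the 48 Rab windows (8.33%) and in 6.04% of all 27025 windows. A match is a description and not a binding site.

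Depth was similar between groups. Estimated assigned reads were 4148102 to 9279123 in AD_TG, 5483320 to 8856114 in AD_B6 and 3989445 to 9247514 in SJL_B6. Genes with reads numbered 11019 to 12018 in AD_TG, 8748 to 11449 in AD_B6 and 10860 to 12217 in SJL_B6, and the lowest number was that of AD_B6 replicate 3. The markers of the labelled cell type were uneven. Prox1, the transcription factor that defines lymphatic endothelium, had reads in 2 SJL_B6 libraries and in none of AD_TG or AD_B6. It stood at 8.38 in SJL_B6 replicate 1 and at 0.88, about the level of 1 read, in SJL_B6 replicate 4. Flt4, the receptor VEGFR3, had reads in 6 of 12 libraries. Pdpn, Nr2f2, Foxc2 and Nrp2 had reads in all 12. All 10 macrophage markers had reads in every library, with summed log2 values of 14.42 to 14.83 in AD_TG, 13.85 to 14.93 in AD_B6 and 14.69 to 15.26 in SJL_B6, against 11.69 to 11.996 in AD_TG, 11.60 to 12.06 in AD_B6 and 11.98 to 12.54 in SJL_B6 for the 10 lymphatic markers. Markers of choroid plexus, the tissue that secretes cerebrospinal fluid, summed to 16.69 to 18.76 in AD_TG, 14.33 to 19.24 in AD_B6 and 13.92 to 18.56 in SJL_B6, and those of fibroblasts to 13.51 to 15.43 in AD_TG, 13.7 to 15.74 in AD_B6 and 13.99 to 14.89 in SJL_B6. Pineal markers summed to 11.5045 to 13.81 in AD_TG, 10.83 to 14.21 in AD_B6 and 12.46 to 13.68 in SJL_B6, and erythroid markers to 12.32 to 14.65 in AD_TG, 12.21 to 15.84 in AD_B6 and 13.78 to 14.18 in SJL_B6. The 10 endothelial markers summed to 9.96 to 10.94 in AD_TG, 8.98 to 10.99 in AD_B6 and 9.94 to 11.41 in SJL_B6. Of these 10, only Kdr had reads in all 12 libraries. Neutrophil markers summed to 9.10 to 14.20 in AD_TG, 10.70 to 14.21 in AD_B6 and 8.88 to 12.58 in SJL_B6. The part of these cell types in the Rab values was not tested. These sums are not divided by gene length. The Rab values are those of whole samples, in which fewer cells of a type cannot be told apart from less RNA per cell.

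More Rab genes had reads in AD_TG than in the other groups. The numbers were 48, 46, 44 and 47 of 59 in the AD_TG libraries, 42, 44, 36 and 40 in AD_B6, and 42, 44, 40 and 42 in SJL_B6. The 4 AD_TG libraries held as many or more than every other library, with ties at 44 in all 3 groups. Over a group, 78.4% of the pairs of a member and a library had reads in AD_TG, 68.6% in AD_B6 and 71.2% in SJL_B6. Over all symbols these shares were 49.6%, 44.3% and 49.2%, so that AD_B6 was lowest for genes at large as well. The part of library depth or of AD_B6 replicate 3 in these numbers was not tested. The Rabs together made up 0.315 to 0.384% of the linear total in AD_TG, 0.364 to 0.450% in AD_B6 and 0.343 to 0.424% in SJL_B6, so the larger number of Rabs with reads in AD_TG did not come with a larger share of the library.

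**Figure D1:**
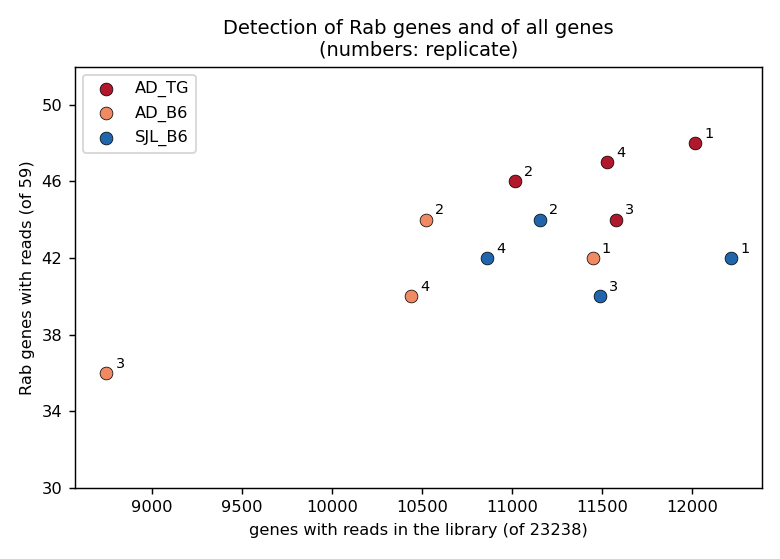
Number of the 59 Rab genes with reads against the number of all genes with reads, for each library (points, coloured by group and numbered by replicate). The AD_TG libraries lie between 44 and 48 Rab genes, the AD_B6 libraries between 36 and 44 and the SJL_B6 libraries between 40 and 44, and AD_B6 replicate 3 is lowest on both axes.

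Of the 59 members, 21 (35.6%) had reads in all 12 libraries, 34 in 1 to 11, and 4 in none. For all symbols, 21.3% had reads in all 12 and 25.7% in none. The 4 members without reads were Rab17, an epithelial Rab, Rab26, of secretory granules, Rab33a, of the Golgi and neuronal vesicles, and Rab44, a large Rab of blood cells. Rab19 and Rab37 had reads in 1 library each. Rab20, Rab39 and Rab40b had reads in 3, and Rab3c and Rab9b in 4. Rab30 and Rab42 had reads in 5. These members, with Rab25 at low values in 6 libraries, were too low or too rare for the test, apart from Rab42, so that 13 were not tested and 46 were.

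**Figure D2:**
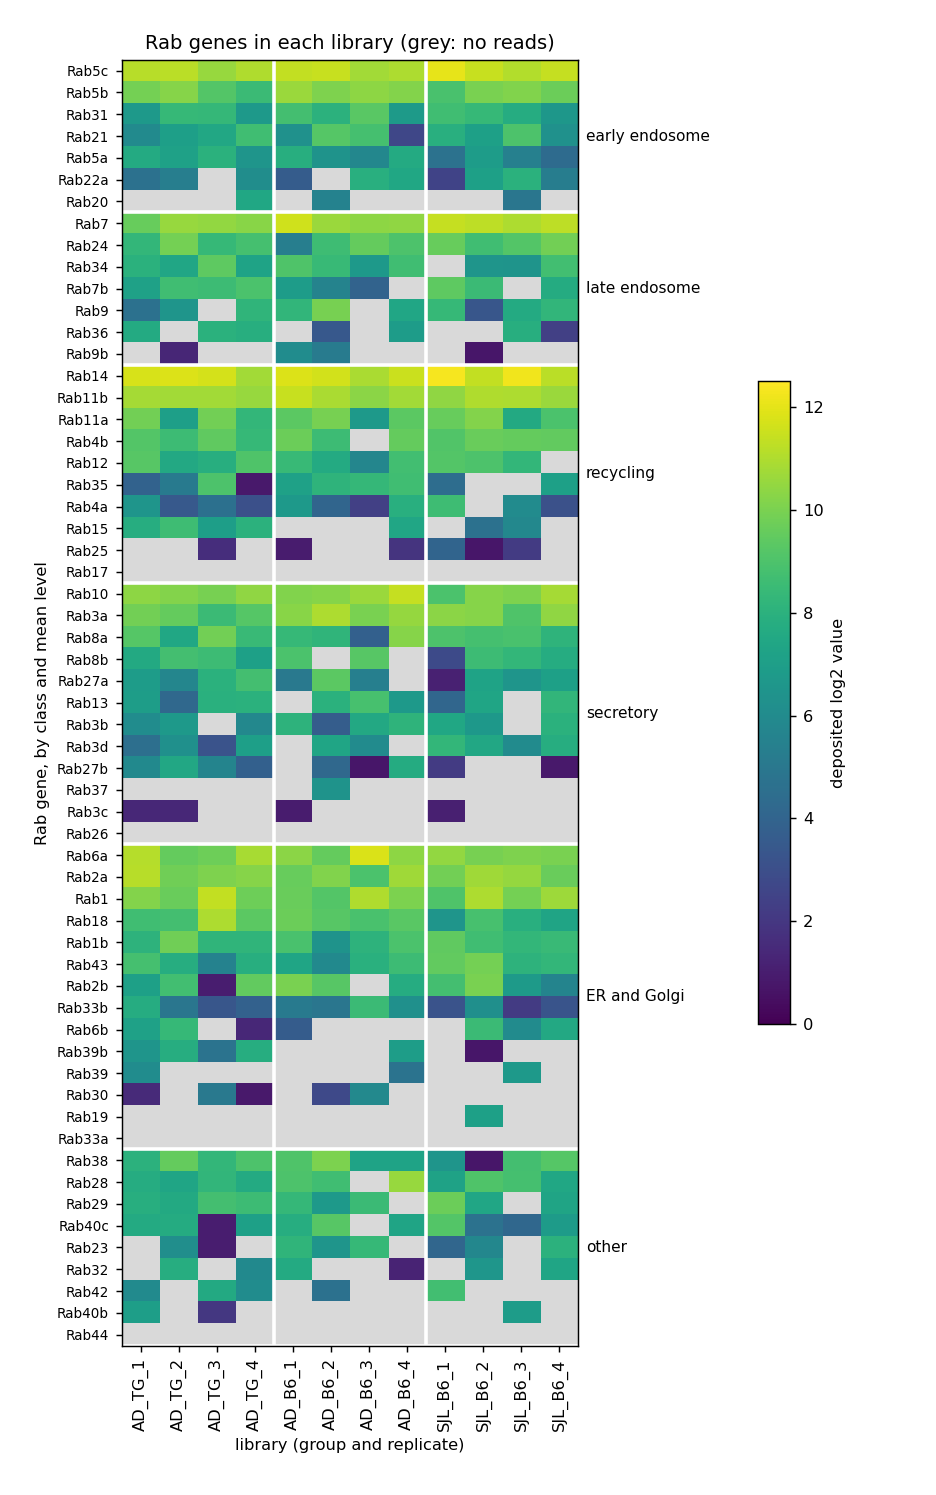
Deposited log2 values of the 59 Rab genes (rows, grouped by the site of their proteins) in the 12 libraries (columns, AD_TG, AD_B6 and SJL_B6). The 21 genes with reads in all libraries form the unbroken rows, and grey cells mark libraries without reads of a gene, which the 34 genes with reads in 1 to 11 libraries show in every class.

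A gene with many reads in most libraries could be listed at 0 in 1. Rab4b, a recycling Rab of the early endosome, had values of 9.18, 8.58, 9.46 and 8.35 in AD_TG, 9.68, 8.58, 0 and 9.53 in AD_B6, and 9.09, 9.64, 9.52 and 9.50 in SJL_B6. The 0 belonged to AD_B6 replicate 3, while the other 11 libraries had an estimated 329 to 1122 reads. Such gaps in exactly 1 library occurred for 8 members: Rab4b, Rab28, Rab2b and Rab40c in AD_B6 replicate 3, Rab27a in AD_B6 replicate 4, Rab34 in SJL_B6 replicate 1, Rab4a in SJL_B6 replicate 2 and Rab12 in SJL_B6 replicate 4. Whether such a 0 means that no RNA was sequenced or comes from the counting cannot be told from the files, so counts of genes with reads are counts of listed values. For a gene with such zeros, a difference between groups on this log2 scale depends on the 1 added to every value before the logarithm, and its interval is wide.

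Endocytic Rabs had reads most often and ER-Golgi and other Rabs least often. Of the pairs of a member and a library, 82.7% had reads for endocytic members (139 of 168), 76.7% for recycling members (92 of 120), 70.1% for secretory members (101 of 144), 69.6% for ER-Golgi members (117 of 168) and 61.1% for other members (66 of 108). Early-endosome members stood at 86.9% and late-endosome members at 78.6%. The members differ in length and the classes were compared without a test. Endocytic pairs had reads about equally often in the groups, with 47 of 56 in AD_TG, 46 in AD_B6 and 46 in SJL_B6. Secretory pairs had reads in 37 of 48 in AD_TG, 31 in AD_B6 and 33 in SJL_B6. The recycling counts were 33 of 40 in AD_TG, 30 in AD_B6 and 29 in SJL_B6, and the ER-Golgi counts were 43 of 56 in AD_TG, 36 in AD_B6 and 38 in SJL_B6.

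The mean log2 value over the 14 endocytic members was 6.79 ± 0.56 in AD_TG, 6.61 ± 0.60 in AD_B6 and 6.50 ± 0.44 in SJL_B6 (SD of the library means, n = 4). The recycling mean was 6.57 ± 0.58 in AD_TG, 6.17 ± 1.3 in AD_B6 and 5.94 ± 0.75 in SJL_B6, and the secretory mean 5.56 ± 0.29 in AD_TG, 4.95 ± 0.62 in AD_B6 and 5.0 ± 0.78 in SJL_B6. In each of these classes the library means overlapped between all 3 groups. The ER-Golgi mean was 5.88 ± 0.72 in AD_TG, 5.29 ± 0.50 in AD_B6 and 5.46 ± 0.77 in SJL_B6, again with overlap. The mean of the other members was 4.77 ± 0.46 in AD_TG, 4.07 ± 1.47 in AD_B6 and 4.3 ± 0.94 in SJL_B6.

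No Rab gene passed the test in any comparison. Each comparison was fitted with limma over 11955 genes, and Rabs and background alike had 0 calls at an adjusted p below 0.05 (0 of 46 Rabs, 0% of all genes tested in each comparison). The lowest adjusted p of any gene was 0.871 for AD_TG against AD_B6, 0.999 for AD_TG against SJL_B6 and 0.869 for AD_B6 against SJL_B6. At an unadjusted p below 0.05 there were 4 Rabs of 46 in AD_TG against AD_B6, where 5.35% of all genes passed (639). In AD_TG against SJL_B6 there were 5, where 2.99% of all genes passed (357). In AD_B6 against SJL_B6 there were 2, where 5.41% of all genes passed (647). Leaving out 1 library at a time gave 1 to 4, 2 to 5 and 1 to 3 such Rabs in these comparisons.

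Groups that did not overlap were few. AD_TG lay wholly above AD_B6 for 1 Rab (Rab7b; 1.95% of all genes) and wholly below it for 1 (Rab3a; 0.928%). AD_TG lay wholly above SJL_B6 for 3 (Rab15, Rab27b and Rab39b; 1.46% of all genes) and wholly below it for 1 (Rab7; 1.07%). AD_B6 lay wholly above SJL_B6 for 2 (Rab18 and Rab35; 0.912% of all genes) and wholly below it for 0 (1.91%). The counts of 0 or 1 are about what these shares give for 46 Rabs. The 3 Rabs of AD_TG and the 2 of AD_B6 above SJL_B6 are larger shares than among all genes, which was not tested, and Rab15, Rab27b, Rab35 and Rab39b each had SJL_B6 libraries without reads.

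In AD_TG against AD_B6, 27 Rabs were higher and 19 lower, with a median difference of 0.29 (log2) beside 0.41 over all genes tested. This direction turned with the scaling: with every library centred on its mean it was 18 higher and 28 lower, with a median of -0.34 beside -0.22 over all genes. After quantile normalization it was 22 higher and 24 lower, with a median of -0.02 beside 0.08. Relative to the median of all genes, which centring cannot alter, the Rab median was -0.13 as deposited and -0.10 after quantile normalization, and it ran from -0.28 to 0.06 when single libraries were left out. For AD_TG against SJL_B6 the split was 22 higher and 24 lower, with a median of -0.03 beside 0.08 over all genes, and the Rab median relative to all genes was -0.11 as deposited, 0.00 after quantile normalization and -0.16 to 0.15 when single libraries were left out. For AD_B6 against SJL_B6 the split was 20 higher and 26 lower as deposited, with a median of -0.21 beside -0.31, and 28 higher and 18 lower when centred, with a median of 0.25 beside 0.16. Relative to all genes that Rab median was 0.09 as deposited and after quantile normalization, and 0.03 to 0.33 when single libraries were left out. AD_TG against AD_B6 and AD_B6 against SJL_B6 share the AD_B6 libraries, so their values are given side by side only.

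By class, the median difference in AD_TG against AD_B6 was -0.18 for the 12 tested endocytic Rabs, -0.03 for 8 recycling, 1.10 for 9 secretory, 0.21 for 10 ER-Golgi and 0.67 for 7 other Rabs. Relative to the median of all genes these were -0.59, -0.44, 0.68, -0.20 and 0.25. The secretory median was the value of Rab8a and changed with the members taken. Only 3 secretory Rabs had reads in all 12 libraries, with -1.18 for Rab3a, 1.10 for Rab8a and -0.38 for Rab10. Their median was -0.38, beside 0.10 over all genes with such reads. After quantile normalization of all genes the median of the 9 secretory Rabs was 0.15 beside 0.08 over all genes. Relative to all genes the endocytic median was -0.59 as deposited and -0.45 after quantile normalization, a difference that was not tested. For the 7 endocytic Rabs with reads in all 12 libraries the median was -0.15, beside 0.10 over all genes with such reads. In AD_TG against SJL_B6 the class medians were -0.30 for endocytic, -0.03 for recycling, 0.21 for secretory, 0.11 for ER-Golgi and -0.05 for other Rabs. In AD_B6 against SJL_B6 they were -0.41 for endocytic, -0.06 for recycling, 0.45 for secretory, -0.26 for ER-Golgi and -0.20 for other Rabs, and the secretory median was -0.52 without SJL_B6 replicate 3. The 95% interval of a single Rab reached 3.20 (log2) to each side at the median, which is wider than any of these class medians.

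**Figure D3:**
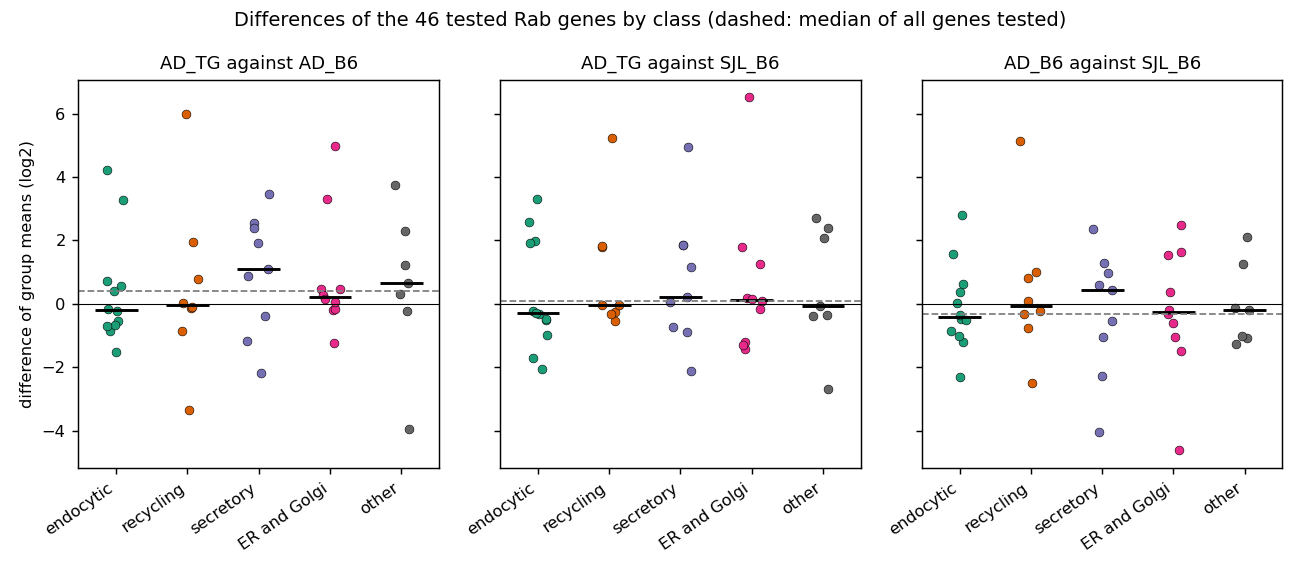
Difference in mean log2 value of each tested Rab gene (points) by class, for AD_TG against AD_B6, AD_TG against SJL_B6 and AD_B6 against SJL_B6, with the class median as a line and the median of all 11955 genes as a dashed line. The classes overlap throughout, and the secretory median of 1.10 in AD_TG against AD_B6 lies above the 0.41 of all genes.

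Of the Rab5 proteins, which drive fusion of early endosomes, Rab5c and Rab5b had reads throughout. Rab5c had values of 11.17, 11.22, 10.58 and 11.01 in AD_TG, 11.37, 11.46, 10.77 and 10.98 in AD_B6, and 12.02, 11.47, 11.08 and 11.42 in SJL_B6. These are even, the groups overlap, and the difference of AD_TG against SJL_B6 was -0.50 ± 0.36 (SE; 95% interval -1.24 to 0.24). Rab5b had 9.88, 10.24, 9.15 and 8.53 in AD_TG, 10.60, 10.07, 10.38 and 10.20 in AD_B6, and 8.90, 10.01, 10.12 and 9.68 in SJL_B6. AD_TG replicate 4 was the lowest of them, and AD_TG against AD_B6 differed by -0.86 ± 0.54 (SE; 95% interval -1.98 to 0.26), with overlap at 10.07 to 10.24.

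Rab5a, the best studied of the Rab5 proteins, had 7.64, 7.15, 8.0 and 6.53 in AD_TG, 7.83, 6.43, 5.80 and 7.66 in AD_B6, and 4.70, 6.91, 5.46 and 4.36 in SJL_B6. SJL_B6 held the 3 lowest values, but the groups overlapped, and AD_TG against SJL_B6 differed by 1.98 ± 1.49 (SE; 95% interval -1.09 to 5.04). An exon of Rab5a overlaps Pp2d1 on the opposite strand, and in 2 libraries both genes were listed at the same value above 0. Reads of the pair may therefore be shared, and Rab5a is uncertain to that extent. Rab21, Rab22a, Rab31 and Rab20, the other early-endosome members, had reads in 12, 10, 12 and 3 libraries.

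Rab7, which directs late endosomes to lysosomes, was the 1 endocytic member whose AD_TG values all lay below those of SJL_B6. Its values were 9.58, 10.59, 10.46 and 10.27 in AD_TG, 11.58, 10.64, 10.37 and 10.44 in AD_B6, and 11.38, 11.28, 10.98 and 11.26 in SJL_B6, with an estimated 436 to 3489 reads in a library. All 4 AD_TG values lay below all 4 SJL_B6 values, and AD_B6 overlapped both groups. The group means were 10.23 ± 0.45 in AD_TG, 10.76 ± 0.56 in AD_B6 and 11.22 ± 0.17 in SJL_B6 (SD, n = 4). AD_TG against SJL_B6 differed by -0.996 ± 0.417 (SE; 95% interval -1.86 to -0.13; limma adjusted p = 0.999). The difference was -1.12 to -0.78 when single libraries were left out.

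Rab7b, a relative that acts between endosomes and the trans-Golgi network, had 7.17, 8.69, 8.58 and 8.96 in AD_TG, 6.92, 5.60, 3.97 and 0.03 in AD_B6, and 9.40, 8.51, 0.07 and 7.71 in SJL_B6. Values under the level of 1 read, such as 0.03 and 0.07, stand for no reads. Every AD_TG library (7.17 or more) lay above every AD_B6 library (6.92 or less), while SJL_B6 spanned both. The difference of AD_TG against AD_B6 was 4.22 ± 2.02 (SE; 95% interval 0.05 to 8.39; limma adjusted p = 0.871). Rab34, which acts in lysosome position and cilium formation, had 8.0, 7.39, 9.39 and 7.23 in AD_TG, 9.06, 8.42, 6.73 and 8.66 in AD_B6, and 0.02, 6.51, 6.47 and 8.72 in SJL_B6. The groups overlapped, and AD_B6 against SJL_B6 differed by 2.79 ± 1.51 (SE), or by 0.98 without SJL_B6 replicate 1, the library listed without its reads. Rab9 had reads in 10 libraries, Rab24 in 12, Rab36 in 7 and Rab9b in 4.

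**Figure D4:**
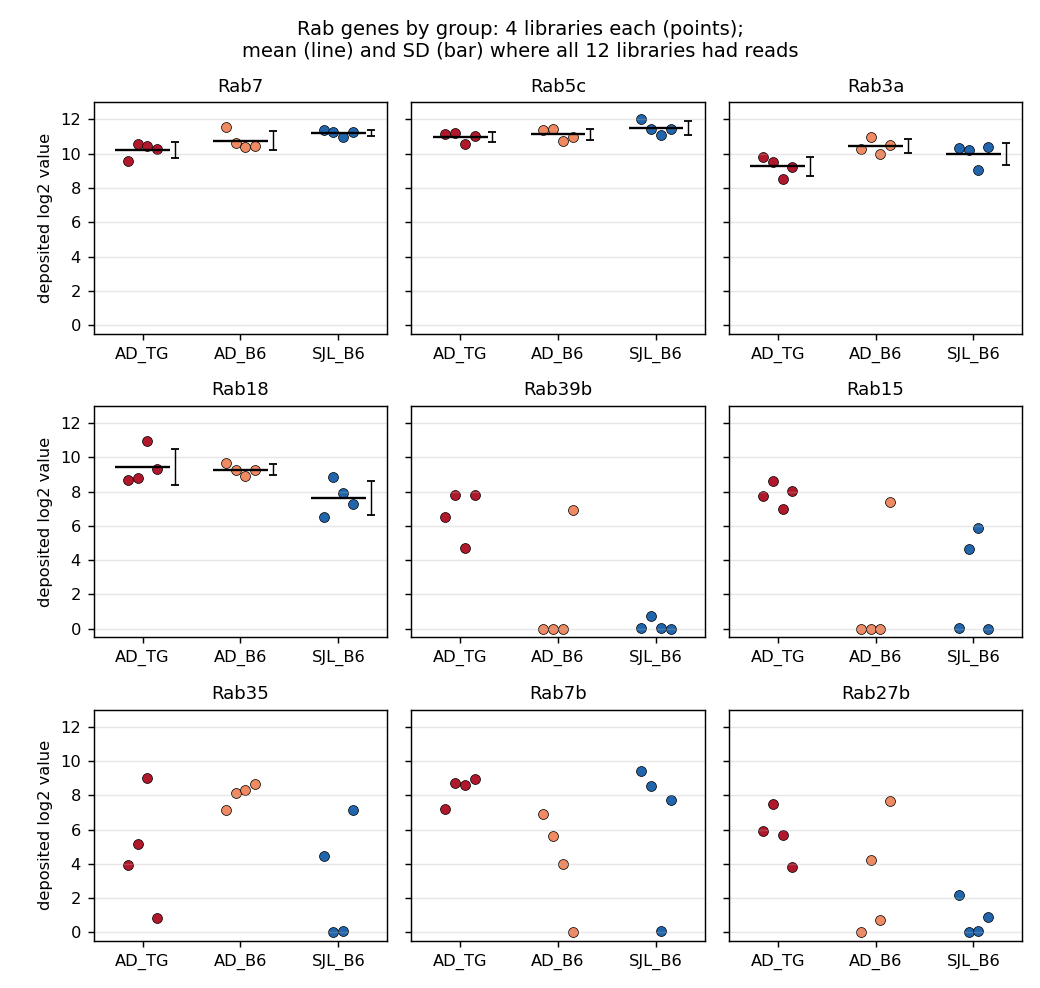
Deposited log2 values of 9 Rab genes in the 4 libraries of AD_TG, AD_B6 and SJL_B6 (points), with the mean and SD for genes with reads in all 12 libraries. Rab7 lies at 9.58 to 10.59 in AD_TG and at 10.98 to 11.38 in SJL_B6, and Rab39b is above 4 in all 4 AD_TG libraries and in 1 other library.

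Among recycling Rabs, Rab14 and Rab11b were steady. Rab14, which moves cargo between Golgi and endosomes, had 11.74, 11.83, 11.67 and 10.78 in AD_TG, 11.85, 11.64, 10.91 and 11.48 in AD_B6, and 12.32, 11.36, 12.22 and 11.20 in SJL_B6. Rab11b, of the recycling endosome, had 10.83, 10.77, 10.76 and 10.55 in AD_TG, 11.46, 10.92, 10.32 and 10.76 in AD_B6, and 10.44, 11.01, 10.99 and 10.62 in SJL_B6. The groups overlapped for both genes. The 95% intervals for Rab11b were -0.95 to 0.68 for AD_TG against AD_B6 and -0.85 to 0.78 for AD_TG against SJL_B6. Rab11a, its close relative, varied far more, with 9.83, 7.07, 9.86 and 8.28 in AD_TG, 9.37, 9.95, 6.76 and 9.35 in AD_B6, and 9.59, 10.18, 7.59 and 8.98 in SJL_B6.

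Rab15, a Rab of early and recycling endosomes known mainly from neurons, had reads in all AD_TG libraries. Its values were 7.77, 8.62, 6.98 and 8.04 in AD_TG, 0, 0, 0 and 7.42 in AD_B6, and 0.02, 4.65, 5.85 and 0 in SJL_B6. AD_TG lay above every SJL_B6 library, and AD_B6 replicate 4 lay inside the AD_TG range. The difference was 6.00 ± 2.41 (SE; 95% interval 1.02 to 10.98; limma adjusted p = 0.871) for AD_TG against AD_B6 and 5.22 ± 2.41 (SE; 95% interval 0.25 to 10.20; limma adjusted p = 0.999) for AD_TG against SJL_B6. In these libraries the summed log2 values of 8 neuronal and secretory markers were 12.84 to 14.41 in AD_TG, 13.06 to 15.001 in AD_B6 and 13.17 to 14.88 in SJL_B6, with Rbfox3 at 0 in all 12 and 5 of the 8 with reads in all 12. The median sum was 13.87 in AD_TG, 14.07 in AD_B6 and 14.04 in SJL_B6, so the list as a whole was not higher in AD_TG. Stx1a of this list had reads in all 4 AD_TG libraries, 2 of AD_B6 and 1 of SJL_B6, and Chga had reads in 4, 3 and 4. The part of neuronal RNA in the Rab15 values was not tested.

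Rab35, which recycles receptors from the plasma membrane, had 3.91, 5.14, 9.03 and 0.85 in AD_TG, 7.15, 8.13, 8.32 and 8.67 in AD_B6, and 4.48, 0, 0.07 and 7.11 in SJL_B6. AD_B6 was the even group, just above the highest SJL_B6 library, and AD_TG overlapped both. The difference of AD_B6 against SJL_B6 was 5.15 ± 2.31 (SE; 95% interval 0.37 to 9.92; limma adjusted p = 0.869). Rab4b differed by -2.49 ± 1.39 (SE) in AD_B6 against SJL_B6, and by -0.17 without AD_B6 replicate 3, where it was listed at 0. Rab12 and Rab4a had reads in 11 libraries, Rab25 in 6 and Rab17 in none.

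Among secretory Rabs, Rab3a, which tethers regulated secretory vesicles, stood lowest in AD_TG. It had 9.83, 9.53, 8.5 and 9.20 in AD_TG, 10.26, 10.97, 10.01 and 10.53 in AD_B6, and 10.32, 10.21, 9.04 and 10.41 in SJL_B6. All AD_TG values lay below all AD_B6 values, and SJL_B6 replicate 3 lay within the AD_TG range. The difference of AD_TG against AD_B6 was -1.18 ± 0.53 (SE; 95% interval -2.27 to -0.08; limma adjusted p = 0.871). Mpv17l2, whose exon overlaps Rab3a on the opposite strand, averaged 7.68 in AD_TG, 5.05 in AD_B6 and 7.63 in SJL_B6, the reverse order of AD_TG and AD_B6. It had reads in 11 of 12 libraries, and an AD_B6 library without reads, at 0.031, lowers the AD_B6 mean.

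The other Rab3 genes were patchy. Rab3d, of secretory granules, had 4.57, 6.28, 3.21 and 7.03 in AD_TG, 0, 7.37, 6.05 and 0.03 in AD_B6, and 8.27, 7.52, 6.01 and 7.80 in SJL_B6, and AD_B6 against SJL_B6 differed by -4.04 ± 2.22 (SE; 95% interval -8.61 to 0.53). Rab3b had 6.08, 6.73, 0.00 and 5.84 in AD_TG, 8.06, 3.67, 7.54 and 8.13 in AD_B6, and 7.44, 6.69, 0.07 and 8.0 in SJL_B6. In replicate 3 of both AD_TG and SJL_B6 there were no reads of Rab3b. Rab3c had reads in 4 libraries, none above 1.41.

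Rab27a and Rab27b bring secretory granules to the plasma membrane, in endothelium those that hold von Willebrand factor. Rab27b had 5.92, 7.5, 5.66 and 3.81 in AD_TG, 0, 4.21, 0.75 and 7.68 in AD_B6, and 2.19, 0, 0.07 and 0.88 in SJL_B6. All AD_TG values lay above all SJL_B6 values, and AD_TG against SJL_B6 differed by 4.94 ± 2.17 (SE; 95% interval 0.45 to 9.42; limma adjusted p = 0.999). In SJL_B6 no library exceeded 2.19, near the level of 3 reads (1.64 to 2.65). Rab27a showed no such order, with 6.93, 5.75, 8.0 and 8.75 in AD_TG, 5.04, 9.35, 5.40 and 0.03 in AD_B6, and 1.14, 7.26, 6.52 and 7.09 in SJL_B6. Vwf itself had reads in 5 of 12 libraries.

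Rab10, which carries vesicles to the surface, had 10.37, 10.16, 9.93 and 10.43 in AD_TG, 10.16, 10.25, 10.61 and 11.41 in AD_B6, and 8.95, 10.23, 10.06 and 10.82 in SJL_B6, with full overlap. Rab8a had reads in 12 libraries, Rab8b and Rab13 in 10, Rab37 in 1 and Rab26 in none.

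Between the endoplasmic reticulum and the Golgi, Rab39b and Rab18 had the smallest p in AD_TG against SJL_B6. Rab39b, whose human gene is linked to intellectual disability and parkinsonism, had 6.52, 7.81, 4.74 and 7.81 in AD_TG, 0, 0, 0 and 6.95 in AD_B6, and 0.02, 0.75, 0.07 and 0 in SJL_B6. It had reads in every AD_TG library, in AD_B6 replicate 4 and, at the level of 1 read, in SJL_B6 replicate 2. The difference was 6.51 ± 2.07 (SE; 95% interval 2.24 to 10.78; limma adjusted p = 0.999) for AD_TG against SJL_B6, and 4.98 ± 2.07 (SE; 95% interval 0.71 to 9.25; limma adjusted p = 0.871) for AD_TG against AD_B6. With SJL_B6 at or near 0, these differences are fitted values and no measure of the fold. Rab15 and Rab39b were the members with reads in all libraries of 1 group and in at most 1 library of another.

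Rab18, of lipid droplets and the endoplasmic reticulum, had 8.67, 8.79, 10.95 and 9.34 in AD_TG, 9.68, 9.24, 8.92 and 9.29 in AD_B6, and 6.53, 8.87, 7.90 and 7.29 in SJL_B6. The SJL_B6 libraries held the 3 lowest values, and SJL_B6 replicate 2 lay within the AD_TG range and just below AD_B6. Means were 9.44 ± 1.05 in AD_TG, 9.28 ± 0.31 in AD_B6 and 7.65 ± 0.99 in SJL_B6 (SD, n = 4). AD_TG against SJL_B6 differed by 1.79 ± 0.76 (SE; 95% interval 0.22 to 3.36; limma adjusted p = 0.999), and AD_B6 against SJL_B6 by 1.63 ± 0.76 (SE; 95% interval 0.06 to 3.20; limma adjusted p = 0.869). Both comparisons share the SJL_B6 libraries.

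Rab6a, of traffic through the Golgi, had 11.10, 9.55, 9.75 and 10.88 in AD_TG, 10.32, 9.53, 11.79 and 10.38 in AD_B6, and 10.50, 9.92, 10.07 and 9.996 in SJL_B6, with overlap of all groups. Rab6b had 7.14, 8.35, 0.00 and 1.39 in AD_TG, 3.62, 0, 0 and 0.03 in AD_B6, and 0.02, 8.51, 6.01 and 7.55 in SJL_B6. AD_B6 was low throughout, but each other group also had a library without reads, and AD_B6 against SJL_B6 differed by -4.61 ± 2.49 (SE; 95% interval -9.75 to 0.53). Rab43, which acts at the Golgi, had 8.84, 7.80, 5.56 and 7.85 in AD_TG, 7.37, 5.92, 7.93 and 8.57 in AD_B6, and 9.52, 9.87, 8.06 and 8.29 in SJL_B6, and AD_TG against SJL_B6 differed by -1.42 ± 1.01 (SE; 95% interval -3.50 to 0.66). Rab1, Rab1b, Rab2a and Rab33b had reads in 12 libraries and Rab2b in 11.

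Of the remaining members, Rab38, which serves lysosome-related organelles, had 8.03, 9.53, 8.26 and 9.02 in AD_TG, 9.07, 10.04, 7.25 and 7.26 in AD_B6, and 6.53, 0.76, 8.74 and 9.18 in SJL_B6. It was the 1 other member with reads in all libraries, although SJL_B6 replicate 2 lay at about the level of 1 read. Rab23, which restrains hedgehog signalling, had 0.07, 6.18, 1.02 and 0 in AD_TG, 8.16, 6.51, 8.39 and 0.03 in AD_B6, and 4.14, 5.78, 0.07 and 8.04 in SJL_B6. AD_TG against AD_B6 differed by -3.96 ± 2.55 (SE; 95% interval -9.22 to 1.31), and the groups overlapped. Rab28 and Rab40c had reads in 11 libraries, Rab29 in 10, Rab32 in 6, Rab42 in 5, Rab40b in 3 and Rab44 in none.

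How far a Rab varied within its group followed its level. The pooled SD within groups was 0.32 for Rab11b, 0.34 for Rab5c, 0.43 for Rab7 and 0.49 for Rab14 (log2), and 3.64 for Rab36 and 3.90 for Rab32. Rab11b stood at the 0.49th percentile of the SDs of all genes tested. Among genes with a mean log2 value of 10 or more, the median SD was 0.53 for the 8 Rabs and 0.60 for all genes, between 8 and 10 it was 1.05 for 8 Rabs and 1.02 for all genes, between 6 and 8 it was 2.77 for 14 Rabs and 2.53 for all genes, and below 6 it was 2.94 for 16 Rabs and 3.36 for all genes. The differences between Rabs and all genes within a range were not tested.

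**Figure D5:**
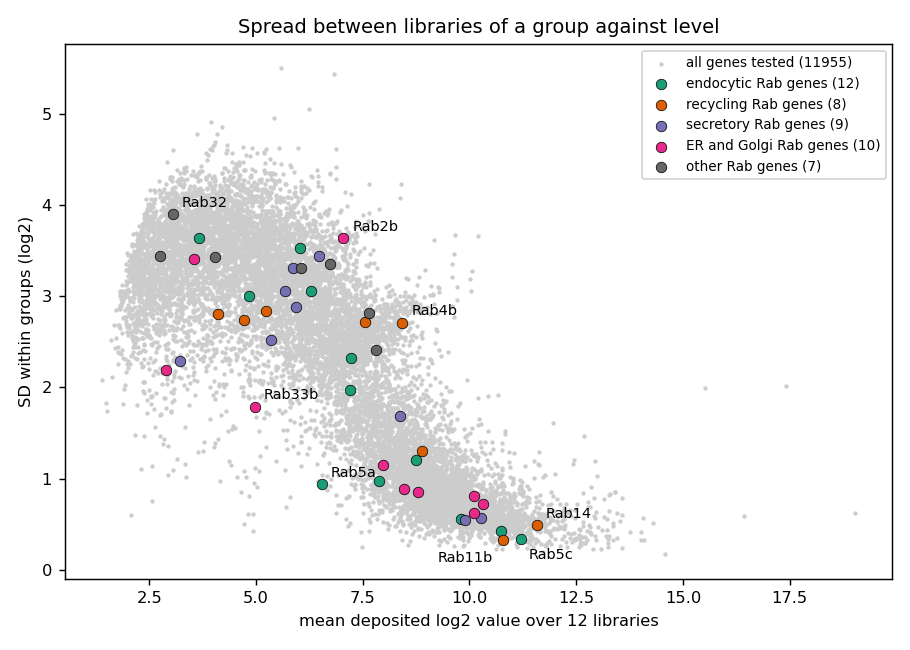
Pooled SD within groups against mean log2 value over the 12 libraries, for the 46 tested Rab genes (coloured points) and all 11955 genes (grey). Rab11b, Rab5c and Rab14 lie at the lower right with SDs of 0.32 to 0.49, and Rabs with a mean below 8 reach an SD of 3.90.

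The regulators and effectors of Rabs gave no call either. Of 159 listed genes that load, extract, activate, inactivate or bind Rabs, 136 were tested, and 0 passed in any comparison; at an unadjusted p below 0.05 there were 8 for AD_TG against AD_B6, 6 for AD_TG against SJL_B6 and 10 for AD_B6 against SJL_B6, where 5.35%, 2.99% and 5.41% of all genes passed. In AD_TG against AD_B6, 96 were higher and 40 lower, with a median of 0.61 beside 0.41 over all genes. With the libraries centred 66 were higher and 70 lower. After quantile normalization 85 were higher and 51 lower, with a median of 0.26 beside 0.08 over all genes. In AD_TG against SJL_B6, 69 were higher and 67 lower as deposited and after quantile normalization, or 58 and 78 when centred. In AD_B6 against SJL_B6, 52 were higher and 84 lower, with a median of -0.55 beside -0.31 over all genes. There the counts were 67 and 69 when centred, and 62 and 74 after quantile normalization.

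The genes that escort Rabs and attach their lipid anchor lay mostly higher in AD_TG than in SJL_B6. All 7 tested members had a positive difference as deposited and 6 of 7 had one when centred or quantile normalized, with a median of 0.97 beside 0.08 over all genes, and none passed the test. In AD_TG against AD_B6, 6 of 7 were higher as deposited and after quantile normalization, and 3 of 7 when centred. In AD_B6 against SJL_B6, 4 were higher and 3 lower as deposited and after quantile normalization, and 5 and 2 when centred. Gdi2, which extracts GDP-bound Rabs from membranes, had 10.13, 9.68, 10.65 and 10.84 in AD_TG, 9.66, 10.18, 10.53 and 9.01 in AD_B6, and 8.59, 9.81, 9.50 and 9.53 in SJL_B6. Rabggtb, the catalytic subunit of the enzyme that prenylates Rabs, had 7.94, 9.39, 10.38 and 10.19 in AD_TG, 8.61, 10.01, 9.36 and 9.38 in AD_B6, and 7.44, 9.74, 8.33 and 5.05 in SJL_B6. For both genes the groups overlapped, and AD_TG against SJL_B6 differed by 0.97 ± 0.54 (SE) for Gdi2 and by 1.83 ± 0.88 (SE) for Rabggtb, with an adjusted p of 0.999 each by limma. The summed log2 value of the list was 12.02 to 12.74 in AD_TG, 11.92 to 12.37 in AD_B6 and 11.75 to 11.91 in SJL_B6, so that AD_TG and AD_B6 overlapped each other. The lowest AD_TG sum lay above the highest SJL_B6 sum (11.911), and the lowest AD_B6 sum (11.917) lay just above it as well. This separation of SJL_B6 from both other groups was not tested.

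Effectors of recycling Rabs had mostly negative differences in AD_TG against SJL_B6, with 2 of 12 higher and 10 lower under each of 3 scalings. Their median was -0.63 as deposited and -0.91 after quantile normalization, beside 0.08 and 0.02 over all genes. In AD_B6 against SJL_B6 they were 3 higher and 9 lower as deposited and after quantile normalization, or 7 and 5 when centred. In AD_TG against AD_B6 they were 7 higher and 5 lower as deposited and after quantile normalization, or 4 and 8 when centred. Effectors of endocytic Rabs were 9 higher and 15 lower in AD_TG against SJL_B6. They were 7 higher and 17 lower in AD_B6 against SJL_B6, or 9 and 15 both when centred and after quantile normalization. In AD_TG against AD_B6 they were 19 higher and 5 lower, or 12 and 12 when centred and 13 and 11 after quantile normalization. None of these genes passed the test either.

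Single genes of these lists showed the same mix of steady and patchy values. Acap2, a GAP and Rab35 effector, had 9.13, 8.89, 10.53 and 9.0 in AD_TG, 8.97, 9.29, 8.47 and 9.87 in AD_B6, and 3.22, 8.17, 7.53 and 7.95 in SJL_B6. Both AD_TG and AD_B6 thus lay above SJL_B6, as AD_TG did for 1.46% of all genes tested and AD_B6 for 0.912%. Acap2 differed by 2.67 ± 0.98 (SE) in AD_TG against SJL_B6, and by 1.51 without SJL_B6 replicate 1. Golga4, a golgin of the trans-Golgi, had 10.27, 11.17, 11.22 and 10.29 in AD_TG, 7.54, 10.38, 7.71 and 10.20 in AD_B6, and 9.77, 10.85, 10.48 and 10.15 in SJL_B6, and differed by 1.78 ± 0.62 (SE) in AD_TG against AD_B6. Ocrl, a phosphoinositide phosphatase that binds Rabs, had 4.04 to 7.93 in AD_TG and 7.94 to 9.42 in AD_B6, a difference of -2.78 ± 1.24 (SE).

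The GTPase-activating genes Sgsm2 and Sgsm3 were low in AD_B6. Sgsm2 had 3.38, 0, 0 and 0.03 in AD_B6, against 7.97, 7.0, 7.80 and 8.93 in SJL_B6, and Sgsm3 had 5.16, 0, 0 and 0.03 in AD_B6, against 7.77, 8.52, 7.15 and 7.10 in SJL_B6. In AD_TG, Sgsm2 had 7.67, 0, 8.26 and 7.605, and Sgsm3 had 4.67, 7.11, 7.32 and 0. For both genes every AD_B6 library lay below every SJL_B6 library, as for 1.91% of all genes tested. The differences in AD_B6 against SJL_B6 were -7.07 ± 2.32 (SE) for Sgsm2 and -6.34 ± 2.35 (SE) for Sgsm3. With most AD_B6 libraries at or near 0, they are no measure of the fold. Tbc1d2b, another of this kind, differed by 4.23 ± 1.93 (SE) in the same comparison. The exchange factor Mon1b, of the complex that activates Rab7, differed by 5.48 ± 2.34 (SE) in AD_TG against AD_B6, where 3 AD_B6 libraries were at 0. Trappc5, a subunit of the TRAPP complex, differed by -4.84 ± 1.84 (SE) in AD_TG against AD_B6 and by -3.63 ± 1.84 (SE) in AD_TG against SJL_B6. Rabif differed by 4.95 ± 2.18 (SE) and Ehbp1l1, a Rab8 effector, by -1.86 ± 0.89 (SE) in AD_TG against SJL_B6, and the adjusted p was 0.869 or more for every gene of these lists by limma.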

How the data were processed

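RNA of sorted mouse meningeal cells was sequenced in 12 libraries, from 500 ng of total RNA with a Lexogen QuantSeq kit, per the labels' protocols. Each library has 1 file of log2 values by symbol, which the authors deposited as log2(x + 1) of scaled amounts. Their scaling is not given in the sources used here. Bowtie2, bedtools and the build hg19 are named, without versions, per the submitters' processing notes; hg19 is a human build, whereas the symbols are those of the mouse, and no coordinates were taken from the files. Values are not divided by gene length, so levels were not compared between genes as a result. The means served only to pick the highest member of each class and to order rows of the heat map. Each file held 23282 entries for 23238 symbols; of 35 symbols with several entries the highest was kept, and 44 entries were left out. The size of 1 read was estimated from the even steps of the low linear values, of which 90.4 to 100% lay within 0.15 of a whole step below 20, and depth follows from it.

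A gene entered the tests when its linear amount reached 10 in 4 libraries or more, which left 11955 genes for limma 3.58.1 (lmFit, then eBayes with trend) in R 4.3.3, with all 12 libraries in 1 fit, two-sided and Benjamini-Hochberg adjusted over all genes tested. A count model had been foreseen for counts, and limma was used because the files hold log2 values. The fit was tested on simulated data, with changes added only to genes with a mean log2 value of 10 or more. Only 8 of the 46 tested Rabs lie in that range, so the simulation says little about the others. The Rab members, their classes, and the lists of regulators and markers were chosen with earlier results of these data known. Values in every library are given for the member with the highest mean in each class, the 3 members per direction with the smallest p in each comparison, those with reads in all of 1 group and at most 1 library of another, and the paralogs of Rab3, Rab5, Rab7, Rab11 and Rab27. Of the regulators and effectors, the 2 genes per direction with the smallest p are named; Gdi2 and Rabggtb were chosen after their values were seen. Symbols were matched to RefSeq for 23132 of 23238 (99.5%), with all 59 Rabs among them. Exons of 10 Rabs overlap a gene of the files in GENCODE M21, 9 of them on the opposite strand. No protein sequences were used here.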

Additional observations from a re-analysis of the deposited data

Results flagged for a closer look

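In groups of 4 libraries, a library stood far from the other 3 in 26 of the 138 groups examined, by Dixon's ratio of the gap to the range at its 95% critical value. Chance alone gives this in about 1 in 20 groups, and genes that switch between reads and none give it readily.

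Among Rabs with reads in every library, AD_TG replicate 4 was low for Rab14 at 10.78 and SJL_B6 replicate 3 was low for Rab3a at 9.04. For patchy Rabs, 1 library was high where the others had few or no reads: AD_B6 replicate 4 for Rab15 at 7.42 and for Rab39b at 6.95, SJL_B6 replicate 2 for Rab39b at 0.754, AD_TG replicate 2 for Rab23 at 6.18, AD_B6 replicate 1 for Rab6b at 3.62 and for Rab3c at 0.955, and SJL_B6 replicate 1 for Rab3c at 1.12. In others 1 library was low: SJL_B6 replicate 1 for Rab27a at 1.14, AD_B6 replicate 3 for Rab4b at 0, and for Rab3b AD_TG replicate 3 at 0.003, AD_B6 replicate 2 at 3.67 and SJL_B6 replicate 3 at 0.07. The mean of the secretory Rabs was low in AD_TG replicate 3 at 5.14, and that of the late-endosome Rabs was high in AD_TG replicate 4 at 7.33.

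Among regulators and effectors, Acap2 was high in AD_TG replicate 3 at 10.53 and low in SJL_B6 replicate 1 at 3.22, and Ehbp1l1 was low in AD_B6 replicate 2 at 6.15. Mon1b was high in AD_B6 replicate 4 at 6.11. Rabif was at 0 in AD_TG replicate 4, at 7.96 in AD_B6 replicate 3 and at 1.14 in SJL_B6 replicate 1. Sgsm2 was at 0 in AD_TG replicate 2 and at 3.38 in AD_B6 replicate 1, and Sgsm3 was at 5.16 in AD_B6 replicate 1.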

How the results depend on the processing

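No Rab passed the adjusted threshold under any alternative run; the lowest adjusted p of a Rab was 0.573, with eBayes run without trend, and 0.655 when single libraries were left out. Without trend, genes called numbered 10 in AD_TG against AD_B6, 2 in AD_TG against SJL_B6 and 10 in AD_B6 against SJL_B6, and none was a Rab. Of the 30 differences of single genes recomputed under the alternatives, none changed sign. This says little, because they had been chosen for the smallest p in these data. Some alternatives, such as the run without trend, change only the estimate of spread and not the differences. Genes with zeros were absent from the run on genes with reads in all 12 libraries. Medians of classes moved more. With libraries centred on their mean, the median in AD_TG against AD_B6 was -0.34 for all Rabs, -0.81 for endocytic and 0.47 for secretory Rabs, and in AD_B6 against SJL_B6 it was 0.25 for all Rabs and 0.060 for endocytic Rabs. After quantile normalization the secretory median in AD_TG against AD_B6 was 0.15. Among genes with reads in all 12 libraries it was -0.38, and the median of the other Rabs, then Rab38 alone, was 2.41 in AD_TG against SJL_B6 and 2.10 in AD_B6 against SJL_B6. Leaving out 1 library at a time gave secretory medians of 0.73 to 1.76 in AD_TG against AD_B6 and -0.52 to 0.59 in AD_B6 against SJL_B6, and medians of the other Rabs of -0.37 to 1.26 in AD_TG against SJL_B6. The cause was not tested. Without AD_B6 replicate 3, the library with the fewest genes, 2 Rabs had an unadjusted p below 0.05 in AD_TG against AD_B6 (5.61% of all genes) and 2 in AD_B6 against SJL_B6 (5.72%).

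Same-numbered libraries hardly deviated together (correlations of -0.02 to 0.07). Whether the numbers pair the libraries cannot be told from this. The log2 values themselves correlated at 0.47 at the median, both within a group and between groups. That is another measure than the correlation of deviations from the group mean. With the replicate block, no gene and no Rab was called. The block cannot change the differences or the class medians, because each replicate number occurs once in every group, so only the p-values could move. Unadjusted p-values below 0.05 numbered 685 in AD_TG against AD_B6, 376 in AD_TG against SJL_B6 and 685 in AD_B6 against SJL_B6, beside 639, 357 and 647 without it. Below a mean log2 value of 6 the SD within groups of the 16 Rabs was 2.94 at the median, which limits what can be seen there; the part of depth in it was not tested.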
